A study of Mus musculus and Homo sapiens with 34 samples.

Results

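The lung lineage transcription factors described here are NKX2-1, FOXA1, FOXA2, FOXA3, GATA6, SOX2, SOX4, SOX9, CEBPA and CEBPB, chosen by gene name as 10 regulators of lung epithelial identity. Of these, 9 were measured in the mouse tables, among 21401 genes listed there, and all 10 were measured in the human tables, among 27030 genes. Sox2 was not analysed here in mouse. NKX2-1 is a homeodomain factor that specifies lung epithelium and drives surfactant and other alveolar genes. FOXA1 and FOXA2 are forkhead factors that open closed chromatin and work with NKX2-1 in lung, while in cells that lose NKX2-1 they work with gut and liver regulators such as the nuclear receptor HNF4α. FOXA3 is their liver and gut paralogue, GATA6 is a zinc finger factor of endoderm and lung, SOX2 marks proximal airway, SOX9 marks distal lung tips, SOX4 is a factor of progenitor and tumour cells, C/EBPα acts in alveolar type 2 maturation, and C/EBPβ acts in acute and stress responses.

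The series holds 34 RNA sequencing libraries, 2 for each of 17 groups: 22 libraries come from mouse cultures of lung tumours and 12 from established human lines of lung adenocarcinoma. They compare deletion or induction of HNF4α and treatment with the inhibitors MRTX1133 or trametinib with matched controls. All mouse cultures carried p53frt and Rosa-FSF-CreERT2, which encodes a Cre recombinase activated by 4-hydroxytamoxifen (4OHT). The 3154 organoids also carried Hnf4aflox, and the 1027B organoids and the 3311 cell line carried Foxa1flox and Foxa2flox, whose deletion is not part of any treatment named for these libraries. Each mouse culture is 1 line, and nothing in the labels says that the 2 replicates of a group came from separate cultures, so p values measure the spread between these samples, which may be technical.
The groups were as follows. The 3154 organoids received ethanol or 2 mM 4OHT, as the labels give the dose, for 2 days and were harvested 2 weeks later. In a second experiment 3154 organoids received ethanol or 4OHT, each with vehicle or 3 nM MRTX1133, a small-molecule inhibitor. The labels give 48 h for that experiment, with no 4OHT dose and no interval between the 2 agents, so the time from deletion to harvest is not known there. The 1027B organoids received vehicle, 10 nM trametinib (a MEK inhibitor) or 20 nM MRTX1133 for 48 h, and the 3311 cells received vehicle or 50 nM trametinib for 48 h. For 48 h, 20 nM trametinib or vehicle was given to the human lines H358 and H1651. In the last experiment H1651 cells that carry a lentiviral construct for HNF4α were kept for 7 days with 1 µg/mL doxycycline or without it.

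Library totals ran from 19692517 to 45284286 counts. Expression is given as counts per 1000000 (CPM) after TMM scaling within each table. The edgeR quasi-likelihood test was used for all changes, and a gene was called when its Benjamini-Hochberg adjusted p over all genes tested in its table was under 0.05. Hnf4a was 315 and 427 CPM in ethanol and 53.5 and 68.0 CPM in 4OHT at 2 weeks. In the 48 h experiment it was 221 and 230.1 CPM in ethanol and 49.4 and 50.4 CPM in 4OHT without inhibitor, and 179.7 and 184 CPM and 25.3 and 29.8 CPM with MRTX1133. HNF4A was 47.1 and 35.9 CPM without doxycycline and 94.4 and 96.8 CPM with it. The 2 libraries of a control group could differ in the members. For example, the ethanol vehicle libraries of 3154 at 48 h had 162 and 271 CPM of Sox4 and 147 and 241 CPM of Cebpa, the H1651 vehicle libraries had 54.9 and 25.8 CPM of NKX2-1, and the 2-week ethanol libraries had 275 and 191 CPM of Nkx2-1. The 5 defining epithelial markers (Epcam, Cdh1, Krt8, Krt18 and Krt19) summed to between 3601 and 10911 CPM in every library, as the labels' lung tumour cultures would have it. Sums of other cell type markers are given beside the results at least where the 2 groups did not overlap and either reached 10 CPM. All 5 alveolar type 2 markers and 2 of 3 club markers are also lung output genes, and the part of these markers in the results was not tested. In bulk RNA, fewer cells of a type and less RNA per cell cannot be told apart.

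Promoter sequence from RefSeq (GRCm38.p6, 250 bases before to 50 bases after the annotated start) was matched by symbol for 7 of the 9 mouse members, with 9 start sites between them. Sox9 and Gata6 are named only. The sequences of 5 start sites are shown because these genes moved after Hnf4a deletion: Foxa1 (chr12:57546062-57546361), Foxa2 at its most upstream start (chr2:148046920-148047219) and Sox4 (chr13:28953650-28953949), all on the minus strand, were higher in the 48 h experiment. Foxa3 (chr7:19023490-19023789, minus strand) and Cebpb (chr2:167688665-167688964, plus strand) were lower at 2 weeks. Capitals mark matches to TGTTTAC (a forkhead string), TATAAA or CCAAT on either strand, and each sequence reads 5′ to 3′ on the gene's strand.
Foxa1: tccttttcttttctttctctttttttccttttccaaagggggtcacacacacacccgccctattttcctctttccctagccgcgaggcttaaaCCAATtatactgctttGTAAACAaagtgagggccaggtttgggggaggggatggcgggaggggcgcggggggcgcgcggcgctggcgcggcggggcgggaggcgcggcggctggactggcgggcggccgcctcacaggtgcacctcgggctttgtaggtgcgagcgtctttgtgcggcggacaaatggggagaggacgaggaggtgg
Foxa2: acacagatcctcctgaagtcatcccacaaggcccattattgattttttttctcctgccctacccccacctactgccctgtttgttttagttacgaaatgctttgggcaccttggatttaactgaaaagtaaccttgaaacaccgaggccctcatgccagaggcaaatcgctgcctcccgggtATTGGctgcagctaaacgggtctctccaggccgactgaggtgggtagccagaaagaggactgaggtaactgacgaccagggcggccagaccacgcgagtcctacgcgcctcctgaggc
Sox4: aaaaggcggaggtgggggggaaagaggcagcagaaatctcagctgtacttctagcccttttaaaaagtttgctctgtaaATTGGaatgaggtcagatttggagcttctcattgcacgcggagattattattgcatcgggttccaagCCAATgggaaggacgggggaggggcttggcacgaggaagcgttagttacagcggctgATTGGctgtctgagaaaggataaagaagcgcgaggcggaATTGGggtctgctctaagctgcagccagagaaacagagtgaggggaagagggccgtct
Foxa3: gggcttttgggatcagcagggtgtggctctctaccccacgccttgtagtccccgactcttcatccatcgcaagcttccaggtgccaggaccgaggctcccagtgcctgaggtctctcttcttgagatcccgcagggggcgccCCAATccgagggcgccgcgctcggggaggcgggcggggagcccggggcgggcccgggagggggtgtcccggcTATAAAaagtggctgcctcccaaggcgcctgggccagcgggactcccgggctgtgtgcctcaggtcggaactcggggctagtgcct
Cebpb: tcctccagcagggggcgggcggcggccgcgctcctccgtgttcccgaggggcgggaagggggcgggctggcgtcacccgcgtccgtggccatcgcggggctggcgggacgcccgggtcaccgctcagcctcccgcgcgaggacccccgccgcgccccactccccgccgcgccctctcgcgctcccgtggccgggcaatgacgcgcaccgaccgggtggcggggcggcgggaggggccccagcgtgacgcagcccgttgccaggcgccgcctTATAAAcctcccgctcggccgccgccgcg
The forkhead string TGTTTAC was found in 1 of the 9 member promoters, that of Foxa1, at position -141 from the start and on the opposite strand, and 3.65% of 32851 promoters of the same length hold it. CCAAT was found in 4 of the 9, with 4 matches in Sox4 (at -171, -104, -47 and -8), against 37.4% of all promoters. TATAAA was also found in 4 of the 9, among them Foxa3 at -36, Cebpa at -30 and Cebpb at 22, against 13.6% of all promoters. The other strings searched on both strands were TATTTAC (forkhead), CCACTTGA (NKX2), AACAATG (SOX), TTGCNNCAA (C/EBP), CAAAGTCC (HNF4), TGANTCA (AP-1), TGACGTCA (CRE) and CCGGAAGT (ETS), and these letters were in none of the 9 windows. No string searched contains another, and a match is a description only.

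Levels were compared between genes only per kilobase of exon (GENCODE M21 models), in mouse. In 1027B vehicle libraries Nkx2-1 had the highest level at 110.5 ± 1.08 CPM per kb (SD, n = 2), followed by Cebpa at 90.4 ± 13.8 CPM per kb. Sox4 at 51.5 ± 3.71 and Foxa2 at 51.4 ± 2.25 CPM per kb did not differ beyond their spread. Cebpb at 25.7 ± 4.63, Sox9 at 22.7 ± 3.93, Foxa1 at 20.4 ± 1.49 and Gata6 at 18.8 ± 2.26 CPM per kb followed, each within the spread of its neighbour in that order. Foxa3 was lowest at 15.7 ± 1.33 CPM per kb, below Gata6 by more than the SD of either, with 16.6 CPM per kb in its higher library against 17.2 CPM per kb in the lower one of Gata6.
In 3154 ethanol vehicle libraries at 48 h the order began with Nkx2-1 at 113 ± 12.9 CPM per kb and ended with Foxa3 at 7.60 ± 2.25 CPM per kb. In 3311 vehicle libraries Sox4 was highest at 91.6 ± 9.50 CPM per kb, within the spread of Nkx2-1 at 75.8 ± 16.2 CPM per kb, and Foxa1 at 9.05 ± 0.885 CPM per kb stood next to last, above Foxa3 at 6.55 ± 0.802 CPM per kb. The tables were scaled separately, so levels set across them are descriptive. Foxa2 exceeded Foxa1 per kb in all 3 lines, whose vehicle libraries held 28.4 ± 2.17 against 22.3 ± 1.91 CPM per kb in 3154 at 48 h, 51.4 ± 2.25 against 20.4 ± 1.49 CPM per kb in 1027B and 27.3 ± 0.409 against 9.05 ± 0.885 CPM per kb in 3311.

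**Figure D1:**
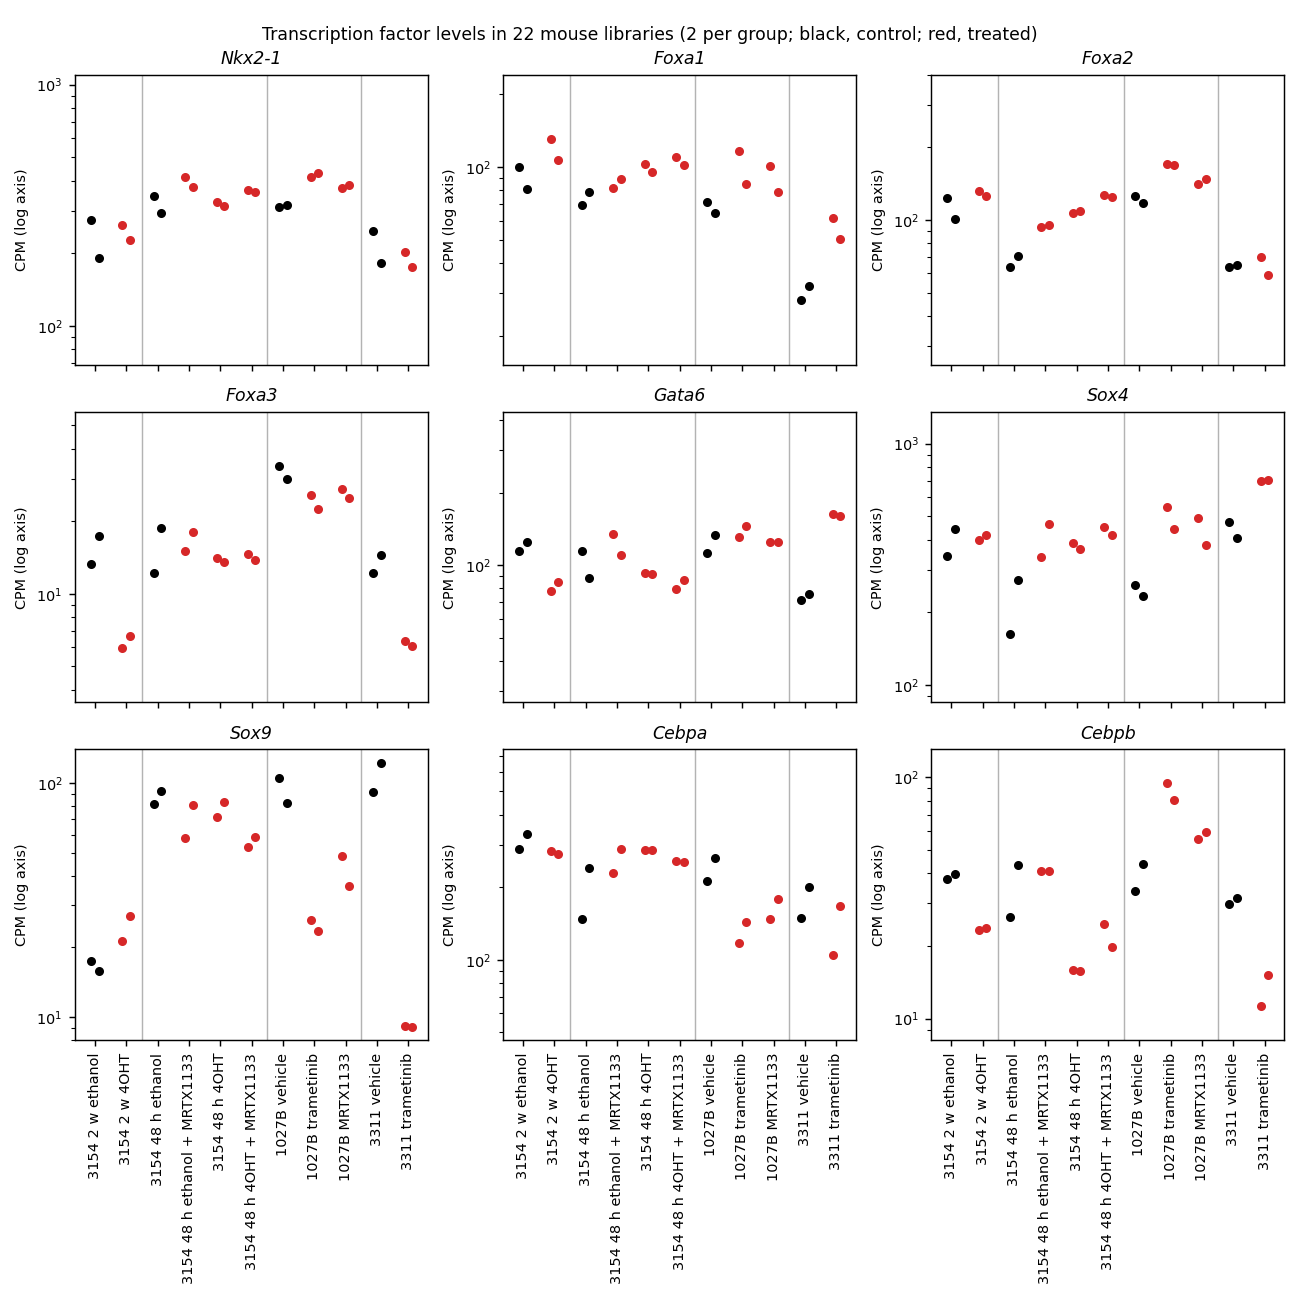
Level of each of the 9 members in each of the 22 mouse libraries, in CPM on a log axis. Each point is 1 library, grey lines part the separately scaled tables, and control groups are black. Sox9 stands lowest in trametinib-treated 3311, at 9.14 and 9.09 CPM, and Cebpb highest in trametinib-treated 1027B, at 94.6 and 80.5 CPM.

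At 2 weeks after Hnf4a deletion in 3154 organoids, 2 of 9 members were called lower and none higher, where 9.81% of all 14492 genes tested were called. Foxa3 was 13.4 and 17.3 CPM in ethanol and 5.94 and 6.71 CPM in 4OHT, with no overlap, and fell by 1.27 on the log2 scale (SE 0.23, adjusted p = 0.0274). Cebpb was 38.0 and 39.6 CPM in ethanol and 23.2 and 23.7 CPM in 4OHT, and fell by 0.72 (SE 0.14, adjusted p = 0.0338). Both 4OHT libraries were below both ethanol libraries for each gene. Gata6 was also below in both, at 78.1 and 85.4 CPM against 114 and 124 CPM, but missed the threshold (log2 fold change -0.54, SE 0.13, adjusted p = 0.0533), while DESeq2 called it (-0.56, adjusted p = 0.0163). Nkx2-1 libraries overlapped between groups, at 275 and 191 CPM in ethanol and 261 and 226 CPM in 4OHT (log2 fold change 0.064, 95% interval -0.43 to 0.56). Foxa1 at 99.8 and 81.0 CPM in ethanol and 130.5 and 107 CPM in 4OHT did not pass (adjusted p = 0.186), nor did Foxa2 (0.20, adjusted p = 0.393), Sox4 (0.055, adjusted p = 0.844), Sox9 (0.54, adjusted p = 0.14) or Cebpa (-0.14, adjusted p = 0.494). Both 4OHT libraries were above both ethanol libraries for Foxa1, Foxa2 and Sox9, and below both for Cebpa. With the replicate number as a block edgeR also called Foxa1 (0.40, adjusted p = 0.0187), Sox9 (0.53, 0.0491) and Gata6 (-0.54, 0.00602). The median log2 fold change of the 9 members was 0.055, against 0.019 over all genes tested.
The call of Foxa3 was lost without either 4OHT library (adjusted p = 0.156 without replicate 1 and 0.106 without replicate 2), and that of Cebpb without ethanol replicate 2 (0.0703) or either 4OHT library (0.204 and 0.161). Without ethanol replicate 1 Gata6 was called (adjusted p = 0.0474), and the number of genes called over the table rose to 2553 without that library and fell to 379 and 324 without 4OHT replicates 1 and 2. The summed immune markers moved with the groups, from 13.5 to 38.5 CPM in ethanol and from 3.77 to 5.77 CPM in 4OHT, with 3 of the 5 listed, Csf1r giving most of the sum and Ptprc at most 0.375 CPM. The basal markers (4 of 4 listed, 1 at 3 counts or fewer) summed to between 35.8 and 56.4 CPM in ethanol and between 22.6 and 30.6 CPM in 4OHT, and the 3 club markers to between 35.3 and 46.8 CPM and between 141 and 164 CPM.
Among genes that work with the members, 3 of 8 tested gut and liver regulators fell and none rose, and their median log2 fold change was -1.33. Among these were Hnf4a itself (-2.61) and Nr5a2, a nuclear receptor of liver and gut that fell by 2.27 (adjusted p = 0.0374). Of 12 lung output genes 2 rose, Cldn18 (a tight junction protein of alveolar cells, log2 fold change 2.52, adjusted p = 0.0207) and Scgb1a1 (the club cell secretory protein, 1.77, adjusted p = 0.0165). Of 17 other lung epithelial regulators 1 rose and 4 fell, and of 13 tested family relatives 1 rose and 1 fell. Of the ERK targets Dusp6, Spry4 and Etv4, the last rose, from 53.6 and 47.6 CPM to 82.4 and 78.0 CPM (0.66, adjusted p = 0.0374).

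In the 48 h experiment 4OHT without inhibitor changed 4 of 9 members, where 31% of the 15458 genes tested were called. Foxa2 rose from 63.6 and 70.8 CPM in ethanol to 107 and 109 CPM in 4OHT (log2 fold change 0.68, SE 0.12, adjusted p = 0.00426). Foxa1 rose from 69.6 and 78.6 CPM to 103 and 95.8 CPM (0.42, SE 0.13, adjusted p = 0.0383), and Sox4 from 162 and 271 CPM to 386 and 365 CPM (0.79, SE 0.24, adjusted p = 0.0409). Cebpb fell from 26.4 and 43.1 CPM to 15.9 and 15.7 CPM (-1.14, SE 0.23, adjusted p = 0.00854). None of these groups overlapped. Cebpa lay above both controls in both 4OHT libraries, at 286 and 285 CPM against 147 and 241 CPM, without passing (0.56, adjusted p = 0.0892). Nkx2-1 did not separate, at 346 and 294 CPM in ethanol and 327 and 316 CPM in 4OHT (0.0048, 95% interval -0.28 to 0.29). Foxa3 (-0.17), Gata6 (-0.13) and Sox9 (-0.16) were also not called, and the median over the 9 members was 0.0048, against 0.010 over all genes.
Foxa1 and Sox4 were not called without ethanol vehicle replicate 1 (adjusted p = 0.0997 and 0.0972), 4OHT vehicle replicate 1 (0.22 and 0.162) or 4OHT vehicle replicate 2 (0.137 and 0.134), nor in a fit of only the 2 groups compared (0.0992 and 0.0897), and Cebpb was not called without 4OHT vehicle replicate 1 (0.0623) or 2 (0.0672). Foxa2 remained called in each of these fits, Sox4 rose by only 0.47 without ethanol vehicle replicate 1, and Cebpa was called without ethanol vehicle replicate 2 (0.96, adjusted p = 0.00309).
With MRTX1133 present, 3 of 9 members changed on 4OHT, where 27.7% of genes were called. Foxa2 rose from 93.7 and 95.4 CPM to 127 and 125 CPM (0.41, SE 0.12, adjusted p = 0.0317). Gata6 fell from 134 and 109.7 CPM to 79.6 and 86.9 CPM (-0.55, SE 0.16, adjusted p = 0.0389), and Cebpb from 41.0 and 40.9 CPM to 24.7 and 19.7 CPM (-0.88, SE 0.23, adjusted p = 0.0242). Sox4 overlapped between these groups, at 340 and 463 CPM in ethanol and 452 and 417 CPM in 4OHT (0.11, adjusted p = 0.762). Foxa1 lay above both controls, at 81.8 and 89.6 CPM in ethanol and 109.7 and 102 CPM in 4OHT, without passing (0.30, adjusted p = 0.113). Nkx2-1 (-0.12, adjusted p = 0.509), Foxa3 (-0.22, adjusted p = 0.478), Sox9 (-0.31, adjusted p = 0.232) and Cebpa (-0.018, adjusted p = 0.961) were not called. The calls rest on both libraries of each arm: Foxa2 and Cebpb were lost when any 1 of the 4 libraries was left out (adjusted p from 0.088 to 0.158 and from 0.0678 to 0.158), and Gata6 remained called only without ethanol MRTX1133 replicate 2.
Markers of other lung epithelial cells moved with 4OHT. Without inhibitor the alveolar type 1 markers (4 of 5 listed) summed to between 563 and 630.3 CPM in ethanol and between 1219 and 1257 CPM in 4OHT, the 3 club markers to between 35.3 and 70.1 CPM and between 427 and 637 CPM, and the 4 basal markers to between 13.9 and 16.6 CPM and between 18.6 and 23.98 CPM. With MRTX1133 the alveolar type 1 sums were 1325 to 1450.3 CPM and 2523 to 2815 CPM, the club sums 145 to 196 CPM and 949.9 to 965 CPM, the basal sums 9.99 to 11.6 CPM and 17.6 to 19.4 CPM, and the epithelial sums 7319 to 7641 CPM and 6795 to 7293 CPM, in ethanol and 4OHT in turn.
The other regulators moved beside them. Of 12 lung output genes 7 rose and none fell on 4OHT without inhibitor, with a median of 0.82, and Cldn18 (3.53, adjusted p = 0.000141) and Scgb1a1 (3.37, adjusted p = 0.000713) rose most. Of 20 other lung epithelial regulators 2 rose and 7 fell. Elf3 (an epithelial ETS factor, -1.98, adjusted p = 0.000408) and Klf5 (a Krüppel-like factor, -1.51, adjusted p = 0.000462) were among the falls. Of 9 gut and liver regulators 3 fell and none rose, and of 11 family relatives 2 rose and 2 fell. With MRTX1133 present, 4OHT raised 4 and lowered none of the 12 lung output genes, raised 3 and lowered 6 of the 20 other lung epithelial regulators, raised 1 (Isx, a homeobox gene of intestine, 2.40, adjusted p = 0.0268) and lowered 5 of the 9 gut and liver regulators, and raised 1 and lowered 3 of the 11 family relatives. Spry4 fell on 4OHT in that arm (-1.32, adjusted p = 0.00136).

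The 48 h experiment also gave the response to 3 nM MRTX1133 with and without Hnf4a deletion. In ethanol no member was called, where 0.349% of all genes were (54 genes by edgeR, 1820 at an unadjusted p under 0.05), and 3 members had an unadjusted p under 0.05. These were Foxa2, which went from 63.6 and 70.8 CPM to 93.7 and 95.4 CPM (0.49, SE 0.12, adjusted p = 0.153), Sox4, from 162 and 271 CPM to 340 and 463 CPM (0.89, SE 0.24, adjusted p = 0.219), and Nkx2-1, from 346 and 294 CPM to 413 and 376 CPM (0.30, SE 0.12, adjusted p = 0.404). All 3 were higher in both treated libraries. DESeq2 called Foxa2 (adjusted p = 0.0306) and Sox4 (adjusted p = 0.0379). Foxa1 (0.21), Foxa3 (0.096), Gata6 (0.27), Sox9 (-0.32), Cebpa (0.41) and Cebpb (0.24) had adjusted p values from 0.526 to 0.912. Without ethanol vehicle replicate 2 Sox4 and Cebpa were called (1.31, adjusted p = 0.0278, and 0.81, adjusted p = 0.0496) and 288 genes passed over the table, while without ethanol MRTX1133 replicate 1 none did and without replicate 2 of that group 15 did.
In 4OHT no member was called either, where 4.64% of genes were, and Sox9 alone had an unadjusted p under 0.05, at 71.9 and 83.4 CPM without and 53.4 and 58.8 CPM with MRTX1133 (-0.47, adjusted p = 0.188). DESeq2 called none of the 9 members there, while a fit of only these 2 groups called Sox9 (-0.46, adjusted p = 0.0115) and Cebpb (0.50, adjusted p = 0.021), against 0.50 and adjusted p = 0.275 for Cebpb with all groups. Nkx2-1 (0.17), Foxa1 (0.090), Foxa2 (0.22), Foxa3 (0.049), Gata6 (-0.15), Sox4 (0.21) and Cebpa (-0.16) had adjusted p values from 0.322 to 0.924. The interaction of 4OHT and MRTX1133 was called for no gene (0%), with 1150 genes and none of the members at an unadjusted p under 0.05, and DESeq2 called 30 genes. The members' interaction estimates ran from -0.68 for Sox4 (95% interval -1.47 to 0.11) to 0.26 for Cebpb (-0.48 to 1.00), with Cebpa at -0.58, Gata6 at -0.42, Foxa2 at -0.27, Sox9 at -0.15, Nkx2-1 at -0.13, Foxa1 at -0.12 and Foxa3 at -0.047 between them. Of Dusp6, Spry4 and Etv4, targets of ERK signalling, none was called with MRTX1133 in ethanol, and in 4OHT Spry4 fell by 1.52 (adjusted p = 0.0131) and Etv4 fell by 1.00 (adjusted p = 0.0277). Hnf4a was also lower there (-0.86, adjusted p = 0.0185). With MRTX1133 in ethanol 1 lung output gene (Cldn18, 2.45) and 1 other lung epithelial regulator (Hopx, 0.93) rose and no gene of the other lists was called. In 4OHT 3 lung output genes rose and 1 fell, 2 other lung epithelial regulators rose and 2 fell, and 1 gut and liver regulator (Hnf4a) and 2 family relatives fell. With MRTX1133 in ethanol the marker sums went from 563 to 630.3 CPM to 1325 to 1450.3 CPM (alveolar type 1), from 6454 to 8723 CPM to 10713 to 13550.4 CPM (alveolar type 2), from 35.3 to 70.1 CPM to 145 to 196 CPM (club) and from 13.9 to 16.6 CPM to 9.99 to 11.6 CPM (basal). In 4OHT they went from 1219 to 1257 CPM to 2523 to 2815 CPM (alveolar type 1), from 7932 to 9122 CPM to 12514 to 16753 CPM (alveolar type 2), from 427 to 637 CPM to 949.9 to 965 CPM (club) and from 7854 to 8214 CPM to 6795 to 7293 CPM (epithelial).

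In 1027B organoids 10 nM trametinib changed 6 of 9 members, where 26.7% of 14555 genes were called. Sox9 fell from 105.5 and 82.5 CPM in vehicle to 26.0 and 23.3 CPM (log2 fold change -1.93, SE 0.19, adjusted p = 0.00141). Cebpb rose from 33.7 and 43.5 CPM to 94.6 and 80.5 CPM (1.18, SE 0.15, adjusted p = 0.00337), while Cebpa fell from 213 and 264 CPM to 118 and 143.5 CPM (-0.87, SE 0.16, adjusted p = 0.0105). The 2 C/EBP genes thus moved in opposite directions with no overlap between groups. Sox4 rose from 260 and 234 CPM to 548 and 442 CPM (1.00, SE 0.16, adjusted p = 0.00701), Foxa2 from 126 and 118 CPM to 171 and 169.7 CPM (0.48, SE 0.09, adjusted p = 0.0112), and Nkx2-1 from 312 and 316 CPM to 413 and 431 CPM (0.43, SE 0.09, adjusted p = 0.0178). Foxa1, at 71.4 and 64.3 CPM in vehicle and 116 and 84.9 CPM on trametinib, missed the threshold (0.57, adjusted p = 0.0628; 0.0262 by DESeq2), as did Foxa3 at 33.8 and 30.0 CPM against 25.7 and 22.4 CPM (-0.41, adjusted p = 0.0677). Gata6 overlapped between groups (0.17, 95% interval -0.10 to 0.44). The members' median was 0.43, against -0.011 over all genes.
Replicate numbers were taken to pair the samples in 1027B, though the titles share only a number. With the replicate as a block Foxa1 (0.55, adjusted p = 0.00144) and Foxa3 (-0.41, adjusted p = 0.0101) were called too, among 6540 genes. Leaving out single libraries, Nkx2-1 lost its call without any 1 of the 4, and Foxa2 and Cebpa without vehicle replicate 2 or trametinib replicate 1. The rise of Foxa1 was larger without trametinib replicate 2 (0.78). Genes called over the table were 1352 without trametinib replicate 1. The alveolar type 1 markers (5 of 5 listed) summed to between 79.2 and 207 CPM in vehicle and between 944 and 1521 CPM with trametinib, the 3 club markers to between 1.07 and 7.80 CPM and between 152 and 283 CPM, and the 5 alveolar type 2 markers to between 6589 and 10586 CPM and between 2229.96 and 2760.3 CPM. The epithelial markers summed to between 9027 and 9170.5 CPM and between 7418 and 8259.7 CPM. The endothelial markers also moved with trametinib, summing to between 2.86 and 3.95 CPM in vehicle and between 8.10 and 10.0 CPM with trametinib (2 of 4 listed). Basal markers summed to between 4.60 and 5.28 CPM in vehicle and between 0.466 and 1.02 CPM with trametinib (3 of 4 listed).

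With 20 nM MRTX1133, 2 of 9 members changed in 1027B, where 6.27% of genes were called. Sox9 fell to 48.8 and 36.2 CPM (-1.14, SE 0.18, adjusted p = 0.021) and Sox4 rose to 489 and 380 CPM (0.82, SE 0.16, adjusted p = 0.0378), with no overlap with the vehicle libraries given above. Cebpb at 55.7 and 59.4 CPM (0.58, adjusted p = 0.0799) and Cebpa at 148 and 178 CPM (-0.55, adjusted p = 0.1) lay on the same sides of vehicle as with trametinib without passing, and DESeq2 called both (adjusted p = 0.0266 and 0.0412). Nkx2-1 (0.27, adjusted p = 0.142), Foxa1 (0.40, adjusted p = 0.251), Foxa2 (0.25, adjusted p = 0.166), Foxa3 (-0.29, adjusted p = 0.258) and Gata6 (0.027, adjusted p = 0.92) were not called. With the replicate block 7 members were called, among 3515 genes: beside Sox9 and Sox4 these were Cebpa (-0.55, adjusted p = 0.000827), Cebpb (0.58, adjusted p = 0.0162), Foxa1 (0.39, adjusted p = 0.0158), Nkx2-1 (0.27, adjusted p = 0.0161) and Foxa2 (0.25, adjusted p = 0.038). Sox4 lost its call without any 1 of the 4 libraries (adjusted p from 0.0641 to 0.178), and Sox9 without vehicle replicate 1 (0.0855) or MRTX1133 replicate 2 (0.0838), while 126 to 353 genes were called over the table. With MRTX1133 the marker sums, against the vehicle sums above, were 453 to 834 CPM (alveolar type 1), 69.8 to 80.7 CPM (club), 3021 to 4665 CPM (alveolar type 2) and 7992 to 8126 CPM (epithelial).
Both treated groups share the vehicle libraries, and the doses of the 2 drugs differ. Set directly against each other, no gene was called (0%), with 2357 genes and 3 members at an unadjusted p under 0.05, and DESeq2 called 675 genes. The 3 members were Sox9, higher with MRTX1133 (0.79, 95% interval 0.34 to 1.23, adjusted p = 0.145), Cebpb, lower (-0.61, -0.97 to -0.25, adjusted p = 0.151), and Foxa2, lower (-0.23, -0.45 to -0.018, adjusted p = 0.278). DESeq2 called Sox9 (adjusted p = 0.0116) and Cebpb (adjusted p = 0.0271). The estimates of the others were -0.15 for Nkx2-1, -0.16 for Foxa1, 0.11 for Foxa3, -0.14 for Gata6, -0.19 for Sox4 and 0.32 for Cebpa. The alveolar type 1, alveolar type 2 and club marker sums given above did not overlap between the drugs, nor did the endothelial sums, which lay between 4.57 and 7.13 CPM with MRTX1133. With the block Sox9 (0.77, adjusted p = 0.00275), Cebpa (0.32, adjusted p = 0.0158) and Cebpb (-0.61, adjusted p = 0.0186) were called, among 2050 genes. The ERK target Dusp6 was 246 and 296 CPM in vehicle, 30.4 and 47.5 CPM with trametinib and 114 and 123 CPM with MRTX1133. With MRTX1133 against vehicle Dusp6 (-1.20), Spry4 (-1.97), Etv4 (-1.35) and Hnf4a (-0.76, adjusted p = 0.0375) all fell, and with trametinib Dusp6 (-2.80), Spry4 (-4.49) and Etv4 (-3.56) did.
Among the other lists, trametinib raised 5 and lowered 4 of 12 lung output genes in 1027B. Sftpc, which encodes surfactant protein C, rose (4.01, adjusted p = 0.00507), while Sftpb, which encodes surfactant protein B, fell (-2.99, adjusted p = 0.00491) and Lamp3, a lamellar body protein, fell (-3.34, adjusted p = 0.000379). Of 7 gut and liver regulators 5 fell and none rose, with a median of -0.997, and Hnf4a itself fell from 446 and 471 CPM to 254 and 200.4 CPM (-1.01, adjusted p = 0.00535). Of 17 other lung epithelial regulators 1 rose and 4 fell, and Id2, an inhibitor of basic helix-loop-helix factors, fell most (-2.84, adjusted p = 0.00136). Of 11 family relatives 3 fell, among them Sox13 (-1.90, adjusted p = 0.00145). With MRTX1133 1 lung output gene rose and 1 fell, and 4 gut and liver regulators, 2 other lung epithelial regulators and 1 family relative (Sox13, -1.51) fell. No gene of these lists was called between the drugs.

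In 3311 cells 50 nM trametinib changed 6 of 9 members, where 39% of 15224 genes were called. Sox9 fell from 91.2 and 122 CPM to 9.14 and 9.09 CPM (-3.55, SE 0.19, adjusted p = 0.000262), the largest change of any member in mouse. Gata6 rose from 71.4 and 75.9 CPM to 163 and 159.8 CPM (1.13, SE 0.13, adjusted p = 0.00124), Foxa1 from 28.0 and 32.2 CPM to 61.8 and 50.1 CPM (0.89, SE 0.17, adjusted p = 0.00684), and Sox4 from 471 and 407 CPM to 703 and 706 CPM (0.68, SE 0.15, adjusted p = 0.0137). Cebpb fell from 29.7 and 31.7 CPM to 11.3 and 15.2 CPM (-1.22, SE 0.20, adjusted p = 0.00479), and Foxa3 from 12.2 and 14.5 CPM to 6.38 and 6.05 CPM (-1.10, SE 0.23, adjusted p = 0.00964). None of the 6 overlapped between groups. Nkx2-1 overlapped, at 248 and 183 CPM in vehicle and 202 and 176 CPM on trametinib (-0.19, 95% interval -0.61 to 0.24), as did Foxa2, at 63.9 and 65.3 CPM and 70.0 and 58.9 CPM (-0.0028, -0.34 to 0.33), and Cebpa (-0.36, adjusted p = 0.271).
All 6 calls held without each library in turn, with Cebpa called as well without trametinib replicate 2 (-0.75, adjusted p = 0.019) and 3833 genes called without trametinib replicate 1. Within the FOXA family Foxa1 rose, Foxa3 fell and Foxa2 was not called. Immune markers, with 2 of 5 listed and all of the sum from Csf1r, went from 4.68 to 11.7 CPM in vehicle to 20.2 to 27.7 CPM on trametinib, while Ptprc was at 0. The alveolar type 2 markers (4 of 5 listed) summed to between 4465 and 5204 CPM in vehicle and between 598 and 695 CPM on trametinib, the 5 alveolar type 1 markers to between 63.7 and 67.2 CPM and between 137 and 298 CPM, and the fibroblast markers (4 of 6 listed, 2 of them at 3 counts or fewer) to between 14.9 and 15.8 CPM and between 11.4 and 14.4 CPM. Of 4 tested lung output genes 2 rose and 1 fell (Sftpb, -3.82, adjusted p = 0.000392). Of 19 other lung epithelial regulators 6 rose and 2 fell, of 12 family relatives 5 rose and 1 fell (Foxp2, a forkhead factor of lung, rose by 3.74, adjusted p = 0.000913), and of 10 gut and liver regulators 3 rose and 2 fell. The ERK targets Dusp6 (-1.87), Spry4 (-3.84) and Etv4 (-6.31) all fell, and Hnf4a was not called (-0.39, adjusted p = 0.208).

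**Figure D2:**
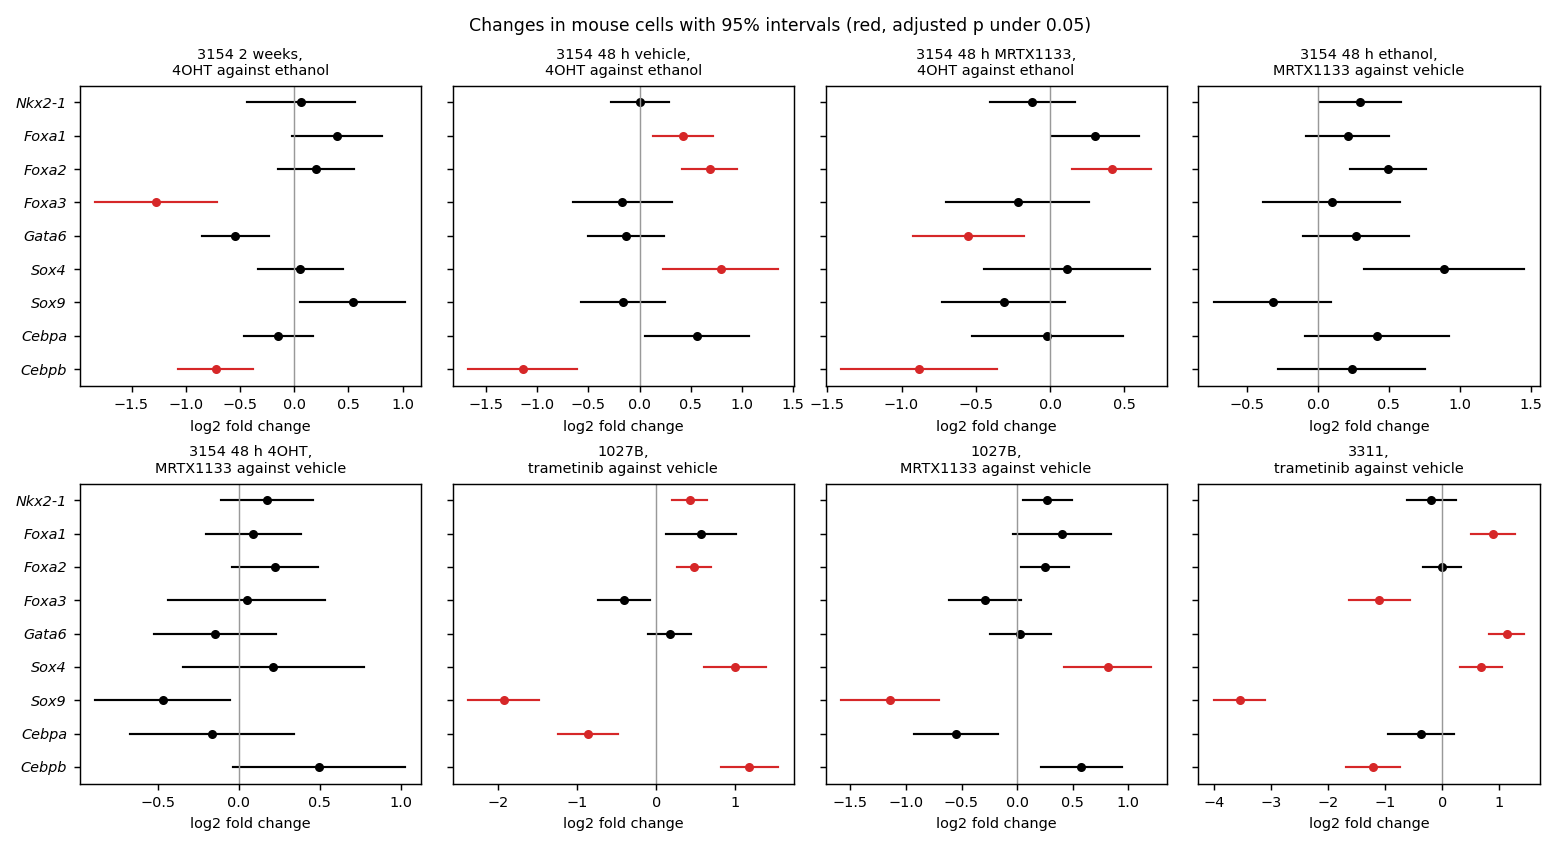
Log2 fold change of each of the 9 members in 8 mouse comparisons, with 95% intervals from the edgeR fit and n = 2 libraries per group. Red marks an adjusted p under 0.05. Sox9 fell with trametinib in 1027B (-1.93) and in 3311 (-3.55), and Cebpb rose in the first (1.18) and fell in the second (-1.22). Each panel has its own scale.

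In H358 cells 20 nM trametinib changed 7 of the 9 members tested, where 46.8% of 18972 genes were called. FOXA2 fell from 83.0 and 82.6 CPM to 3.95 and 6.87 CPM (log2 fold change -3.97, SE 0.23, adjusted p = 1.56e-05). FOXA1 rose from 38.7 and 52.9 CPM to 112 and 113 CPM (1.30, SE 0.15, adjusted p = 0.000304). The 2 forkhead genes thus moved in opposite directions without overlap. SOX4 rose from 370 and 322 CPM to 768 and 665 CPM (1.05, SE 0.12, adjusted p = 0.000298), GATA6 from 11.8 and 9.88 CPM to 16.5 and 15.6 CPM (0.56, SE 0.15, adjusted p = 0.0173) and NKX2-1 from 118 and 132 CPM to 170 and 175.5 CPM (0.47, SE 0.11, adjusted p = 0.00725). CEBPB fell from 73.6 and 68.9 CPM to 32.9 and 41.1 CPM (-0.95, SE 0.13, adjusted p = 0.0008) and SOX2 from 50.4 and 52.3 CPM to 38.6 and 34.9 CPM (-0.48, SE 0.11, adjusted p = 0.00969). SOX9, at 66.8 and 58.3 CPM and 65.3 and 84.0 CPM, overlapped and was not called (0.25, adjusted p = 0.181). CEBPA was at 7 to 33 counts in the 4 libraries and was not called (0.69, 95% interval -0.61 to 1.99). FOXA3, with 3 and 12 counts in vehicle and 1 count in each trametinib library, was not tested. The median of the 9 tested members was 0.47, against 0.015 over all genes.
NKX2-1 lost its call without vehicle replicate 1 (0.36, adjusted p = 0.0791), and GATA6 and SOX2 without vehicle replicate 2 (adjusted p = 0.153 and 0.0606), while SOX9 was called without trametinib replicate 1 (0.43, adjusted p = 0.0218). HNF4A had 0 counts in all 4 H358 libraries, which allows at most 0.0645 to 0.118 CPM at the floor of 3 counts. Fibroblast markers (6 listed of 6, mostly COL1A1 and LUM, with COL1A2 and DCN near 0) went from 40.8 to 49.6 CPM in vehicle to 246 to 348 CPM with trametinib. Over the same groups the basal markers (3 of 4 listed) went from 86.2 to 101 CPM to 21.6 to 26.7 CPM, the endothelial markers (4 of 4) from 13.5 to 15.3 CPM to 28.1 CPM in both libraries, the alveolar type 1 markers (4 of 5) from 427 to 435 CPM to 769 to 811 CPM and the epithelial markers (5 of 5) from 5337 to 5534 CPM to 3601 to 3882 CPM. The alveolar type 2 markers (4 of 5 listed, 2 at 3 counts or fewer) went from 8.31 to 8.48 CPM to 21.2 to 27.6 CPM and the ciliated markers (2 of 4) from 26.6 to 35.6 CPM to 40.7 to 48.6 CPM. Of 6 tested lung output genes 5 rose and none fell, with SLC34A2, the alveolar phosphate transporter, at 4.57 (adjusted p = 4.95e-05). Of 17 other lung epithelial regulators 9 rose and 6 fell, and of 12 family relatives 3 rose and 4 fell, while 1 of 4 tested gut and liver regulators rose. The ERK targets DUSP6 (-7.59), ETV4 (-7.22) and SPRY4 (-5.74) all fell.

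In H1651 cells, without a replicate block, the same dose gave no call among the 10 members, where edgeR called 0% of 18277 genes. In that fit 597 genes and no member had an unadjusted p under 0.05, and DESeq2 called 47 genes. FOXA2 was 3.83 and 2.15 CPM in vehicle and 5.38 and 3.76 CPM on trametinib (0.60, 95% interval -0.29 to 1.5). CEBPB was 82.4 and 108 CPM in vehicle and 60.9 and 77.9 CPM on trametinib (-0.46, -0.93 to 0.016), and NKX2-1 was 54.9 and 25.8 CPM and 64.6 and 37.7 CPM (0.34, -0.74 to 1.42). SOX9 was 6.67 and 5.57 CPM in vehicle and 5.08 and 3.40 CPM on trametinib (-0.53, -1.18 to 0.12). In FOXA2 and NKX2-1 the groups overlapped, and in CEBPB and SOX9 both treated libraries lay below both controls. The other estimates were 0.17 for FOXA1, -0.22 for FOXA3, -0.075 for GATA6, -0.18 for SOX2, 0.20 for SOX4 and 0.12 for CEBPA, each with a 95% interval that holds 0. Replicate differences of the 2 groups correlated at 0.62, but the titles share only a replicate number. With that number as a block edgeR called NKX2-1 (0.37, adjusted p = 5.47e-05), FOXA1 (0.19, 0.0158), FOXA2 (0.61, 0.00327) and SOX4 (0.20, 0.0164). It also called SOX9 (-0.53, adjusted p = 0.00414) and CEBPB (-0.46, 2.44e-08). The alveolar type 1 markers (4 of 5 listed) summed to between 188 and 192 CPM in vehicle and between 207 and 229 CPM on trametinib. The ERK targets were lower in both treated libraries, with DUSP6 at 49.8 and 51.8 CPM in vehicle and 5.27 and 7.46 CPM on trametinib, without being called. HNF4A was 58.3 and 38.2 CPM in vehicle and 58.9 and 33.3 CPM on trametinib, and no gene of the other lists was called.
The difference between the lines in the trametinib response was tested in a joint fit of 8 libraries, in which 19.3% of 21188 genes were called. FOXA2 differed by 4.53 (SE 0.44, adjusted p = 0.000609) and SOX4 by -0.88 (SE 0.24, adjusted p = 0.0354), as H1651 minus H358, and the other 8 members were not called. Their estimates were -0.16 for NKX2-1, -1.15 for FOXA1, 2.52 for FOXA3, -0.67 for GATA6, 0.25 for SOX2, -0.81 for SOX9, -0.63 for CEBPA and 0.47 for CEBPB, with adjusted p values from 0.0775 to 0.886. DESeq2 called FOXA1 (-1.14, adjusted p = 0.0215) and SOX9 (-0.80, adjusted p = 0.037) as well. FOXA2 remained called without each library, and SOX4 was lost without H358 vehicle replicate 1 (adjusted p = 0.0644) or 2 (0.13), H358 trametinib replicate 1 (0.118), H1651 vehicle replicate 1 (0.0983) or H1651 trametinib replicate 2 (0.0951). FOXA1 was called without H1651 trametinib replicate 1 (-1.56, adjusted p = 0.0423) or H1651 vehicle replicate 2 (-1.53, adjusted p = 0.0204), and SOX9 without H1651 trametinib replicate 1 (-1.13, adjusted p = 0.0251). The responses of DUSP6 (4.56), SPRY4 (3.25) and ETV4 (4.97) also differed, as did those of 2 of 7 lung output genes, both lower, 10 of 22 other lung epithelial regulators (4 higher and 6 lower) and 4 of 22 family relatives (2 each way), and of none of 10 gut and liver regulators.
In vehicle, the lines differed in 9 of 10 members, where 69.4% of genes were called, and line and table cannot be told apart. CEBPA was higher in H1651 by 6.85 (adjusted p = 8.64e-07), FOXA1 by 1.24 (adjusted p = 0.00674) and CEBPB by 0.54 (adjusted p = 0.0186). SOX2 was lower in H1651 (-6.53, adjusted p = 3.15e-07), as were FOXA2 (-4.65), SOX9 (-3.23), SOX4 (-2.31), NKX2-1 (-1.50) and GATA6 (-0.76). FOXA3 was not called (1.10, adjusted p = 0.138).

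Doxycycline induction of HNF4α in H1651 for 7 days changed none of the 10 members by edgeR, where 1.42% of 17351 genes were called. Of the members 2 had an unadjusted p under 0.05, and DESeq2 called 441 genes. GATA6 was 6.14 and 5.96 CPM without and 10.1 and 8.78 CPM with doxycycline (0.64, SE 0.15, adjusted p = 0.119), and SOX4 was 104 and 92.9 CPM without and 85.7 and 73.8 CPM with it (-0.31, SE 0.10, adjusted p = 0.249). Neither overlapped between groups. NKX2-1 overlapped, at 41.1 and 29.1 CPM and 30.6 and 24.3 CPM (-0.35, adjusted p = 0.499), and CEBPB (0.12) and CEBPA (0.079) were not called (95% intervals -0.070 to 0.31 and -0.16 to 0.32). FOXA1 (0.068), FOXA2 (0.072), FOXA3 (-0.62), SOX2 (-0.012) and SOX9 (-0.22) had adjusted p values from 0.601 to 0.993. The 6 fibroblast markers summed to between 643 and 725 CPM without and between 407 and 445 CPM with doxycycline, the alveolar type 1 markers (4 of 5 listed) to between 84.4 and 101 CPM and between 74.2 and 76.0 CPM, the alveolar type 2 markers (3 of 5) to between 55.4 and 58.7 CPM and between 40.1 and 54.5 CPM, and the epithelial markers to between 4419.7 and 4422 CPM and between 5716 and 6204 CPM. Of 10 tested gut and liver regulators 2 rose and none fell, among them HNF4A itself (1.2), while none of 18 other lung epithelial regulators, 5 lung output genes or 21 family relatives was called. DUSP6 rose from 52.9 and 53.4 CPM to 71.4 and 83.2 CPM (0.54, adjusted p = 0.0449), and SPRY4 (0.45) and ETV4 (-0.13) were not called.

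**Figure D3:**
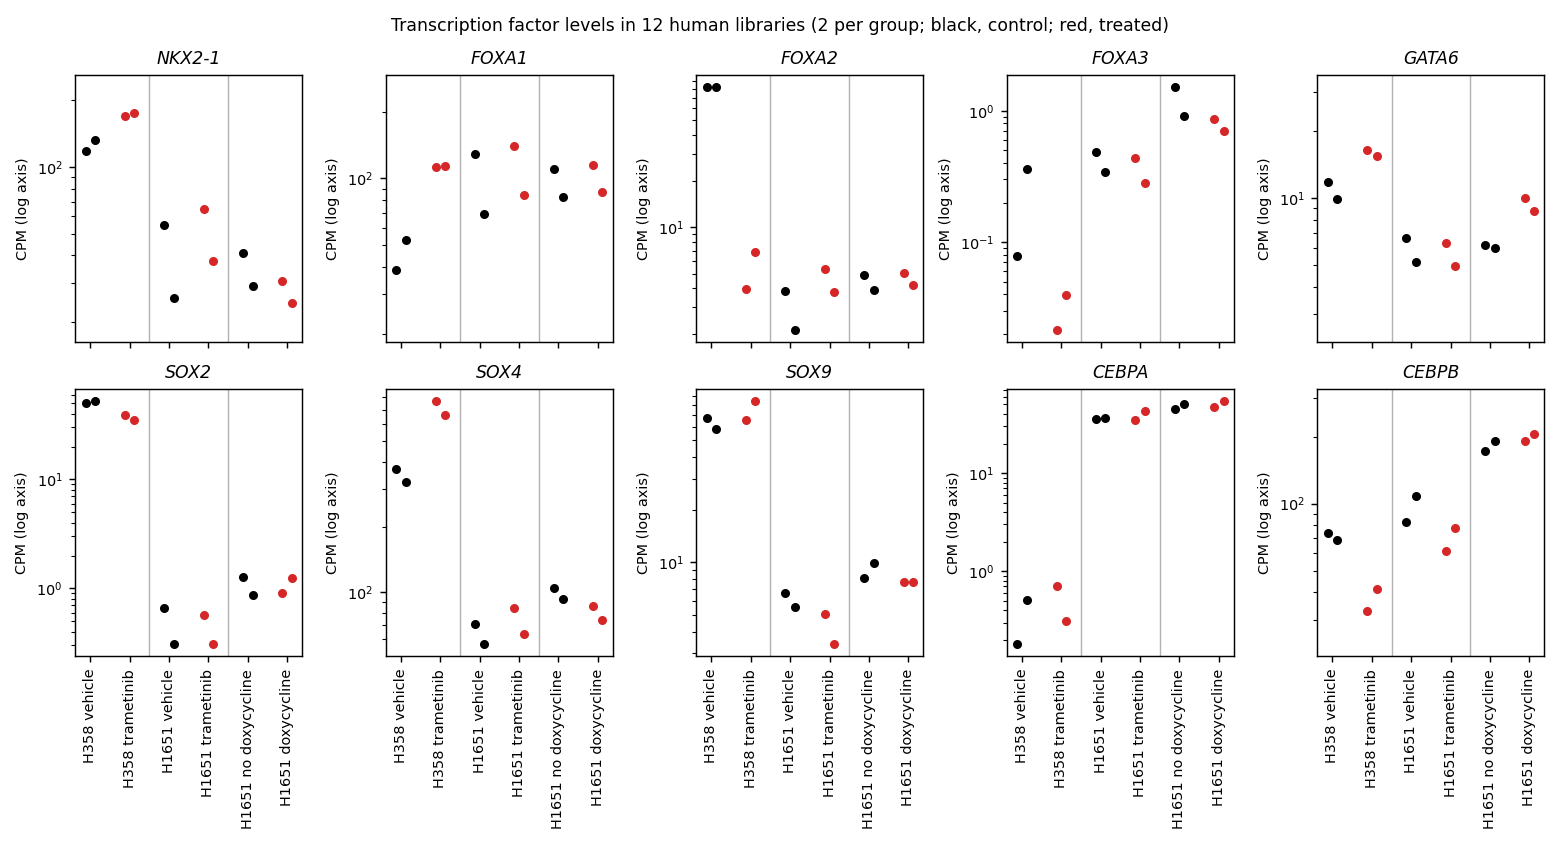
Level of each of the 10 members in each of the 12 human libraries, in CPM on a log axis. Each point is 1 library, grey lines part the separately scaled tables, and control groups are black. FOXA2 stands at 83.0 and 82.6 CPM in H358 vehicle and at 3.95 and 6.87 CPM in H358 trametinib, beside 3.83 and 2.15 CPM in H1651 vehicle.

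**Figure D4:**
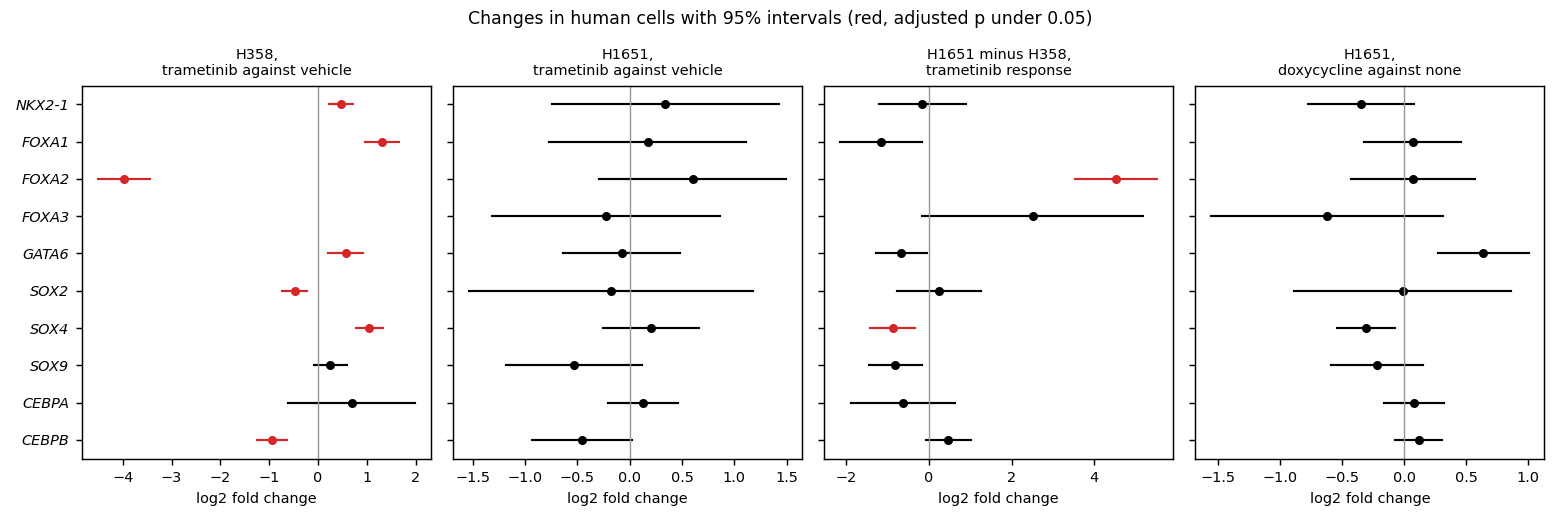
Log2 fold change of each of the 10 members in 3 human comparisons, and the difference of the trametinib response as H1651 minus H358, with 95% intervals and n = 2 libraries per group. Red marks an adjusted p under 0.05. FOXA2 fell by 3.97 in H358 and its difference between the lines was 4.53. FOXA3 was not tested in H358, and each panel has its own scale.

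Across the 22 mouse libraries, after subtraction of each table's mean log2 CPM, the member pairs most alike were Foxa1 with Sox4 (r = 0.74) and Foxa2 with Sox4 (r = 0.72), and the pairs that ran most against each other were Gata6 with Sox9 (r = -0.76) and Foxa1 with Sox9 (r = -0.71). These correlations share libraries and treatments and are descriptive. Among 9443 genes with at least 10 CPM on average, the gene most like each member by the same measure was Mbip for Nkx2-1 (r = 0.82), Fzd6 for Foxa1 (0.96), Slc9a3r2 for Foxa2 (0.94), Pex19 for Foxa3 (0.90), Slc6a6 for Gata6 (0.93), Txndc15 for Sox4 (0.91), Etv4 for Sox9 (0.97), Id1 for Cebpa (0.85) and Gsta3 for Cebpb (0.93). Mbip lies at chr12:56328303-56345894 in GRCm38, 186.1 kb from Nkx2-1 with no protein-coding gene between them in the GENCODE M21 annotation. In the 12 human libraries the gene most like SOX4 was DNAAF9 (r = 0.99), that most like FOXA1 was MECOM (0.99), and that most like CEBPB was FOSL1 (0.99).
In the mouse annotation 54.6% of the exon bases of Sox4 lie opposite Gm26735 and 20.7% of those of Cebpb opposite Tmem189, on the other strand. The libraries kept strand per the labels, and the strand setting of the counting is not given in the sources used here.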

How the data were processed

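The values deposited by the authors are raw counts of reads per gene, in 7 tables (4 mouse, 3 human) with no normalization, per the file headers and the values. The submitters' processing notes name cutadapt 3.5, STAR 2.7.6a and featureCounts 1.6.3, and the genome builds mm10, mm39 and hg38 without their roles. Per the labels, poly(A) RNA was made into directional libraries and read from both ends. The columns of the 3311 table name treatment and replicate only and were assigned by the table they stand in.

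Each table was fitted in R 4.3.3 with edgeR 4.0.16: filterByExpr with its defaults, TMM scaling, and quasi-likelihood F-tests of group means, with all groups of a table in 1 fit and no replicate block. P values were adjusted by Benjamini and Hochberg over the genes tested in a table, with a threshold of 0.05, and intervals are 95% intervals of the log2 fold change. The difference between H1651 and H358 came from a joint fit of their 8 libraries. Counts of 3 or fewer were treated as the floor, and this and the intervals of counts cover counting error only. Library totals ran from 19692517 to 45284286 counts. Groups of 2 libraries are too small for a permutation test to reach 0.05. In each of the 17 groups the 2 replicates differed by more than counting noise (the chi-square over its degrees of freedom lay between 5.4 and 79.5). The fits were tested on simulated counts in which 200 genes were changed 3-fold. Between 60% (H1651 minus H358) and 87.5% (doxycycline in H1651) of these were recovered, and 2.48% to 6.51% of calls were unchanged genes. Smaller changes were not simulated.

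In 1027B the between-group correlations of replicate differences were 0.24, 0.37 and 0.41, so the numbers were taken to pair the samples, and the blocked value is given where it changes a call. The titles share only a number there, as in the other tables. Higher correlations were seen at 2 weeks (0.43), between the ethanol groups at 48 h (0.55) and in H1651 with trametinib (0.62). The blocked calls at 2 weeks and in H1651 with trametinib are given as well.

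The members, the other lists (family relatives, other lung epithelial regulators, lung output genes, gut and liver regulators) and the markers were chosen with earlier results of these data known. All members in a table are named in every comparison, with Hnf4a as the check of deletion or induction, Dusp6, Spry4 and Etv4 as the check of the inhibitors, and at most 4 called members with the largest change from each other list. Alternatives were DESeq2 1.42.0, RLE scaling, no count filter, the replicate block, a fit of only the 2 groups compared, and leaving out each library. In those last fits a lone library was assumed to vary like the other groups. Exon lengths and overlaps came from GENCODE M21 and promoters from RefSeq, both on GRCm38. Some genes and alleles of the study are not reported here.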

Additional observations from a re-analysis of the deposited data

Results flagged for a closer look

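The trametinib response of FOXA2 differed between the human lines by 4.53 on the log2 scale, as H1651 minus H358, in the test of the difference itself (adjusted p = 0.000609). That of SOX4 differed by -0.88 (adjusted p = 0.0354).

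Cebpb moved in opposite directions with trametinib in the 2 mouse lines, with every treated library above both controls in 1027B (log2 fold change 1.18, 10 nM) and below both in 3311 (-1.22, 50 nM). The doses differ and the difference between the lines was not tested. Cebpa was below both ethanol libraries in both 4OHT libraries of 3154 at 2 weeks (-0.14) and above both in the 48 h experiment without inhibitor (0.56), where the time from deletion to harvest is not known. Neither change was called, and their difference was not tested.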

How the results depend on the processing

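RLE scaling and no count filter moved no count of called members by more than 1.5 times. The number of members called became 2 (DESeq2, MRTX1133 in ethanol), 4 (DESeq2, MRTX1133 in 1027B), 2 (DESeq2, MRTX1133 against trametinib) and 4 (DESeq2, H1651 minus H358), and 2 in a fit of only the 2 groups for 4OHT in vehicle and for MRTX1133 in 4OHT. The number of genes called became, with DESeq2, 2336 at 2 weeks, 319 and 1291 for MRTX1133 in ethanol and 4OHT, 30 for their interaction, 1593 and 675 in 1027B for MRTX1133 against vehicle and trametinib, 47 and 441 in H1651 for trametinib and doxycycline, and, with only the 2 groups, 3154 for 4OHT in vehicle, 0 and 3932 for MRTX1133 in ethanol and 4OHT, and 1 for MRTX1133 against trametinib. Without the count filter 2 genes were called in H1651 with trametinib. In 1027B the replicate block gave 6540 genes for trametinib, 7 members and 3515 genes for MRTX1133, and 3 members and 2050 genes between the drugs. In all tables the titles of samples share only a number. Outside 1027B the block gave 5 members and 4563 genes at 2 weeks (Foxa1, Gata6 and Sox9 beside Foxa3 and Cebpb). It gave 6 and 1881 in H1651 with trametinib, and 3 and 3048 with doxycycline (NKX2-1, GATA6 and SOX4). For H1651 minus H358 it gave 6 and 8472 (FOXA1, GATA6, SOX9 and CEBPB beside FOXA2 and SOX4). At 48 h Foxa1 missed the threshold on 4OHT (adjusted p = 0.0519) and Cebpa passed it (0.59, adjusted p = 0.0471). Replicate differences correlated at 0.43 at 2 weeks, 0.13 in 3311, 0.32 in H358, 0.62 and 0.32 in H1651 and from -0.25 to 0.55 at 48 h. The cause of these shifts was not tested.
Leaving out each library gave these ranges of called members and of genes: 0 to 3 and 324 to 2553 at 2 weeks, 1 to 5 and 1724 to 5946 for 4OHT in vehicle, 0 to 1 and 1748 to 2834 for 4OHT with MRTX1133, 0 to 2 and 0 to 288 for MRTX1133 in ethanol, 0 members and 0 to 22 genes for MRTX1133 in 4OHT, 3 to 6 and 1352 to 2835 for trametinib in 1027B, 0 to 1 and 126 to 353 for MRTX1133 there, 0 members and 0 to 2 genes between the drugs, 6 to 7 and 3833 to 6218 in 3311, 5 to 8 and 6366 to 8904 in H358, 0 members and 0 to 64 genes in H1651 with trametinib, 0 members and 182 to 378 genes with doxycycline, and 1 to 4 and 2162 to 3725 for H1651 minus H358.
Signs turned only for members that were not called. Nkx2-1 on 4OHT in vehicle was -0.0079 with RLE scaling, -0.0042 without the filter, -0.011 with DESeq2 and -0.0010 with only the 2 groups. Leaving out 1 library, the ranges that crossed 0 were, at 2 weeks, -0.16 to 0.35 for Nkx2-1 and -0.12 to 0.26 for Sox4. For 4OHT in vehicle they were -0.11 to 0.13 for Nkx2-1, -0.44 to 0.17 for Foxa3 and -0.30 to 0.062 for Gata6, and with MRTX1133 -0.16 to 0.15 for Cebpa and -0.078 to 0.36 for Sox4. For MRTX1133 in ethanol they were -0.18 to 0.43 for Foxa3 and -0.075 to 0.63 for Cebpb, and for the interaction -0.39 to 0.23 for Foxa3, -0.14 to 0.57 for Cebpb and -0.35 to 0.11 for Sox9. In 1027B they were -0.091 to 0.18 for Gata6 with MRTX1133 and -0.37 to 0.081 for Foxa1 between the drugs, and in 3311 -0.39 to 0.051 for Nkx2-1 and -0.14 to 0.11 for Foxa2. In H358 CEBPA ran from -0.099 to 1.56. In H1651 with trametinib they were -0.10 to 0.99 for NKX2-1, -0.23 to 0.69 for FOXA1, -0.57 to 0.064 for FOXA3, -0.26 to 0.12 for GATA6, -0.69 to 0.50 for SOX2, -0.017 to 0.39 for SOX4 and -0.037 to 0.27 for CEBPA. With doxycycline they were -0.15 to 0.29 for FOXA1, -0.084 to 0.25 for FOXA2, -0.26 to 0.28 for SOX2 and -0.030 to 0.18 for CEBPA, and for H1651 minus H358 -0.60 to 0.49 for NKX2-1, -0.26 to 0.95 for SOX2 and -1.50 to 0.21 for CEBPA. Low counts limit CEBPA and FOXA3 in H358 and SOX2 and FOXA3 in H1651.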
